A study of Mus musculus with 8 samples.

Results

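The cluster of miR-322, miR-503, miR-351, miR-542 and miR-450 is a group of miRNA hairpins that lie side by side on the mouse X chromosome. Its members were selected on their names, with the log2 fold changes of TAC over sham in these same libraries in view: the 10 mature miRNAs mmu-miR-322-5p, mmu-miR-322-3p, mmu-miR-503-5p, mmu-miR-503-3p, mmu-miR-351-5p, mmu-miR-351-3p, mmu-miR-450a-5p, mmu-miR-450b-5p, mmu-miR-542-3p and mmu-miR-542-5p, of 697 miRNAs counted in the series. The species prefix is left out from here on. All 10 were found, and each had at least 1 count in all 8 libraries. The libraries came from cardiomyocytes of male mice that underwent transverse aortic constriction (TAC) or a sham operation at 2 months of age. TAC narrows the aorta, so that the left ventricle pumps against a raised pressure and in time fails. The cells were isolated by Langendorff perfusion. The time is read here as 14 weeks after surgery, although the study's methods also call the mice themselves 14 weeks old. Small RNA was sequenced from 4 sham and 4 TAC hearts, 1 heart per library. The strain of the mice is not given in the sources used here, and the labels list no transgene or drug. Because of how the members were selected, the difference between the groups is given for its members as a description without a test.

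A miRNA hairpin is cut into a short duplex whose strands are called 5p and 3p after the arm they come from, and a strand that is loaded into Argonaute finds its targets mainly through its seed, bases 2 to 8 from the 5′ end. Mouse miR-322 corresponds to human miR-424, and with miR-503 it belongs to the extended miR-15/16 family, known for holding back cell-cycle genes such as cyclins and Cdc25a and for promoting the differentiation of muscle cells. miR-351 shares its seed with miR-125, and miR-542-3p is known as a repressor of survivin, a protein of cell division.

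In the GRCm38 build the 7 hairpins lie on the minus strand within chrX:53047997-53054349, a span of 6353 bp. Read along the minus strand, Mir322 comes first at chrX:53054255-53054349, followed by Mir503 at chrX:53053984-53054054 after a gap of 200 bp and Mir351 at chrX:53053255-53053353 after 630 bp. A longer gap of 3767 bp separates these from Mir542 at chrX:53049403-53049487. The 3 miR-450 hairpins come last, Mir450-2 at chrX:53048299-53048367, Mir450-1 at chrX:53048154-53048244 and Mir450b at chrX:53047997-53048078. In the RefSeq annotation the first 3 hairpins lie inside the lncRNA gene C430049B03Rik (chrX:53053112-53057190) and the other 4 outside it, while the shorter GENCODE model of this gene (chrX:53055046-53057190) holds 0 of them. Protein-coding genes on either side are Hprt (chrX:52988078-53021660) and Plac1 (chrX:53069993-53240110). miR-450a-5p is encoded identically by Mir450-1 and Mir450-2, so its counts cannot be divided between these hairpins.

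The mature sequences of all 10 members are shown from the RefSeq table of GRCm38, with the seed in capitals, because the seed decides which members can be read as members of a wider family.
miR-322-5p: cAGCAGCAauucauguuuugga
miR-503-5p: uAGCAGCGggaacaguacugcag
miR-351-5p: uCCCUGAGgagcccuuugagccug
miR-450a-5p: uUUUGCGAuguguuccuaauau
miR-450b-5p: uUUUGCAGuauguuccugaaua
miR-542-5p: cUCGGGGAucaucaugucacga
miR-322-3p: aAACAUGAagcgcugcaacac
miR-503-3p: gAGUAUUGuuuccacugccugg
miR-351-3p: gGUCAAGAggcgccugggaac
miR-542-3p: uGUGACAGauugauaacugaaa

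No member had the same bases 2 to 8 as another member. miR-322-5p and miR-503-5p shared bases 2 to 7 and differed in the last base of the seed. Outside the cluster, 5 counted miRNAs had the seed of miR-322-5p, and 2 had that of miR-351-5p. They are shown for comparison with those members, again with the seed in capitals.
miR-15a-5p: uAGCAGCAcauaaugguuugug
miR-15b-5p: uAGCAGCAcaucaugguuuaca
miR-16-5p: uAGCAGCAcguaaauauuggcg
miR-195a-5p: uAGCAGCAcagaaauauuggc
miR-497a-5p: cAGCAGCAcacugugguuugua
miR-125a-5p: uCCCUGAGacccuuuaaccuguga
miR-125b-5p: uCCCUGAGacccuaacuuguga
A further match, miR-6966-5p, had the seed of miR-542-5p at a mean of 6.88 counts per library. For the other 7 members no seed-mate by bases 2 to 8 was found among the 593 of 697 counted miRNAs that had a RefSeq sequence.

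The sham libraries held between 4005668 and 5392576 miRNA counts and the TAC libraries between 5507169 and 7798943, so the TAC libraries were the deeper ones. No library was a copy of another. Levels are given as CPM, the counts of a miRNA per 1000000 miRNA counts of its library. Because CPM fix the sum over all miRNAs, a group comparison also needs a scaling, and 3 are set side by side here. The reference scaling uses the pair of miRNAs to which the study normalized, in an implementation chosen here with 1 factor for the group. The study describes these miRNAs as unaltered and reports having checked them by quantitative PCR. The reference scaling sets this pair, miR-126a-3p with miR-19b-3p, level between the groups by multiplying the TAC library totals by 0.537. Relative to plain library totals it adds 0.90 to every log2 fold change of TAC over sham. TMM, a scaling that trims extreme miRNAs, adds about 0.21, by factors that differ between libraries. The members were small in this pool, with 4093 to 6800 counts per library in all, and in bulk RNA fewer cells of a type and less RNA per cell cannot be told apart.

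The cluster was dominated by 3 of its 10 members. miR-322-3p held 40.5% ± 2.75 of the members' counts, miR-351-5p 23.8% ± 2.08 and miR-450a-5p 19.3% ± 2.87 (SD, n = 8 libraries), and these 3 came to 83.6% ± 2.04 together. miR-322-5p, the arm with the miR-15/16 seed, held 8.28% ± 0.88. The highest member, miR-322-3p, ranked 86 by total count among all 697 miRNAs, miR-351-5p ranked 104, miR-450a-5p 110 and miR-322-5p 143. The share of each member within the cluster, which no scaling changes, overlapped between sham and TAC for all 10.

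Levels formed clear steps at the top of the cluster and ran together at the bottom. Neighbours in the order of mean log2(CPM + 1) were compared within each library by a two-sided exact sign-flip permutation test over the 8 libraries, adjusted by Benjamini-Hochberg over the 9 pairs. The smallest p that 8 libraries allow is 0.00781. miR-322-3p stood 0.77 ± 0.17 (SD, n = 8) above miR-351-5p on the log2 scale (higher in 8 of 8 libraries, exact adjusted p = 0.0176). miR-450a-5p stood 1.20 ± 0.28 above miR-322-5p, and miR-322-5p 1.76 ± 0.23 above miR-503-5p, each in 8 of 8 libraries with the same adjusted p from the exact test. The step of 0.31 ± 0.26 from miR-351-5p to miR-450a-5p was present in 7 of 8 libraries (exact adjusted p = 0.0281). It no longer passed when any 1 library other than sham 1 was left out, with an adjusted p of 0.0562 by the same exact test. Sham 1 was the library with miR-450a-5p the higher, at 327 against 324 CPM. The smallest p that 7 libraries allow in this test is 0.0156, so fewer libraries alone raise p. The step itself stayed between 0.23 and 0.36 when each library was left out. Lower down, the step of 0.56 from miR-450b-5p to miR-503-3p passed (8 of 8 libraries, exact adjusted p = 0.0176). The other 4 steps did not: miR-503-5p and miR-450b-5p differed by 0.29 (exact adjusted p = 0.0967), miR-503-3p and miR-542-3p by 0.22 (0.258), miR-542-3p and miR-351-3p by 0.41 (0.0804), and miR-351-3p and miR-542-5p by 0.46 (0.0804). Counts were compared between miRNAs as reads, and how readily each sequence enters a library was not tested.

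**Figure D1:**
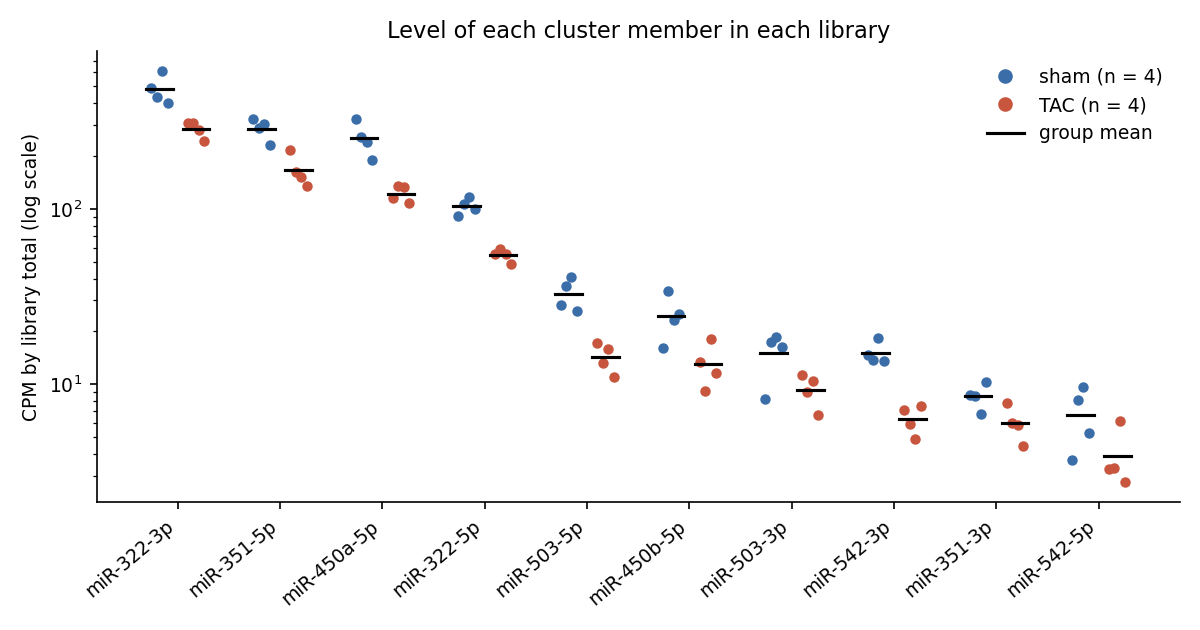
CPM by library total, on a log axis, of the 10 members in the 4 sham and 4 TAC libraries, with each point 1 library and the bar the group mean. The members run from miR-322-3p (243 to 608 CPM) down to miR-542-5p (2.77 to 9.58 CPM), and the TAC points of the leading members sit below the sham points on this scale, but overlap with them under the reference scaling.

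Which arm of the hairpin was counted more differed from hairpin to hairpin. Since both arms come from the same hairpin in the same library, their ratio does not depend on the scaling. For miR-322 the 3p arm was 4.91-fold higher than the 5p arm, with a mean log2 ratio of 5p over 3p of -2.29 ± 0.18 (SD, n = 8, 3p higher in 8 of 8 libraries, exact sign-flip adjusted p = 0.0104 over the 4 hairpins with both arms among the members). The arm carrying the miR-15/16 seed was the less counted one. miR-351 was the opposite case, with 5p 30.2-fold higher than 3p (log2 4.92 ± 0.32, 8 of 8 libraries, exact adjusted p = 0.0104). For miR-503 the 5p arm was 1.85-fold higher (0.89 ± 0.42, 8 of 8 libraries, exact adjusted p = 0.0104). miR-542 leaned to 3p, the survivin-targeting arm (log2 -1.0 ± 0.67, 3p higher in 7 of 8 libraries, exact adjusted p = 0.0156). The exception was the library of TAC mouse 3, at 0.33. Of the arms that are not members, miR-450b-3p was counted at 64.8 per library on average, and the log2 ratio of miR-450b-5p to it was 0.65 ± 0.58, with 5p higher in 6 of 8 libraries. miR-450a-1-3p had a mean of 37.1 counts and miR-450a-2-3p one of 3.25.

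The arm ratios of sham and TAC overlapped for every hairpin. Mean log2 ratios of 5p over 3p in sham and TAC were -2.21 and -2.38 for miR-322, 1.16 and 0.62 for miR-503, 5.06 and 4.77 for miR-351, and -1.25 and -0.75 for miR-542. These differences between the groups were not tested.

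**Figure D2:**
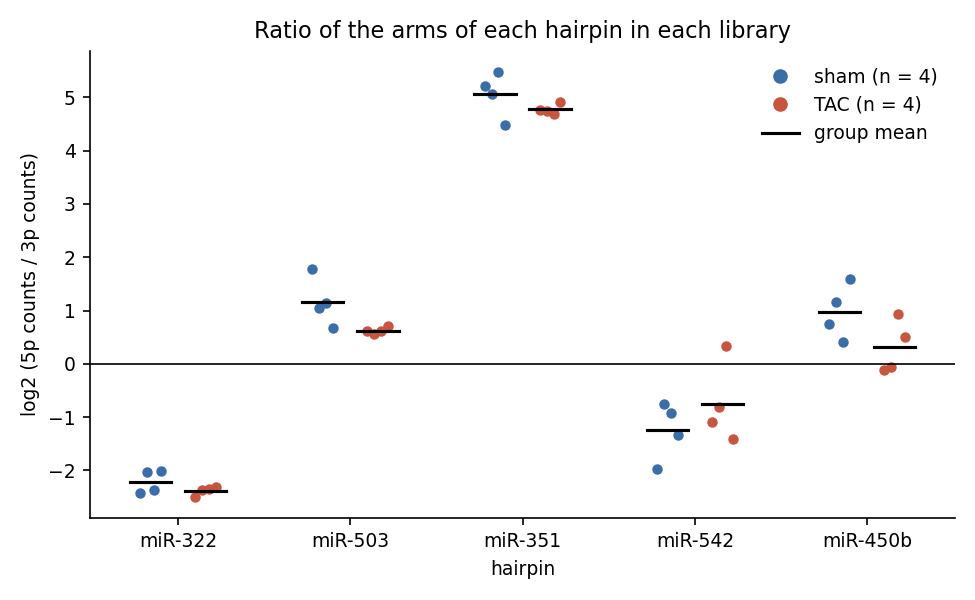
Log2 ratio of 5p over 3p counts in each library (points, sham and TAC in separate colours) for the hairpins with both arms counted, with the group means as bars and 0 marking equal arms. miR-322 lies below 0 and miR-503 and miR-351 above 0 in all 8 libraries, and sham and TAC points overlap for every hairpin.

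Whether the cluster differed between TAC and sham depended on the scaling. As a share of all miRNA counts the 10 members together made up 0.131%, 0.120%, 0.139% and 0.102% in sham 1 to 4, against 0.0755%, 0.0710%, 0.0681% and 0.0578% in TAC 1 to 4. Every TAC library was lower than every sham library in this share. The summed level was 1230.2 ± 158 CPM in sham and 681 ± 75.2 CPM in TAC (SD, n = 4 each), a log2 ratio of -0.85. With the reference scaling the TAC libraries came to 1407, 1322, 1268 and 1077, the mean to 1268 ± 140.1 and the log2 ratio to 0.04, and the groups overlapped. With TMM the log2 ratio was -0.64. The cluster was thus lower in TAC as a share of the miRNA pool, and overlapped with sham when the pool was scaled to the reference pair. By library totals that pair itself had log2 fold changes of -1.0 for miR-19b-3p and -0.80 for miR-126a-3p.

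The leading member, miR-322-3p, measured 492, 432, 608 and 403 CPM in sham 1 to 4 and 311, 307, 279.6 and 243 CPM in TAC 1 to 4. The groups did not overlap, the lowest sham library being above the highest TAC library. The log2 fold change of TAC over sham was -0.76 ± 0.16 (SE) by library totals, -0.55 by TMM and 0.13 ± 0.16 by the reference scaling. miR-322-5p, which carries the miR-15/16 seed, measured 91.4, 106, 117 and 100.1 CPM in sham and 55.2, 59.2, 55.0 and 48.7 CPM in TAC. Its groups were again separate, and within TAC its libraries lay close together. Its log2 fold change was -0.93 ± 0.14 by library totals, -0.72 by TMM and -0.03 ± 0.14 by the reference scaling.

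miR-503-5p, the neighbour of miR-322-5p in seed and position, was measured at 28.3, 36.2, 41.0 and 26.0 CPM in sham and at 17.3, 13.2, 15.9 and 10.9 CPM in TAC, without overlap. It passed a mean of 100 counts over all libraries only through sham, with 79 to 103 counts in the TAC libraries. By library totals it ranked 8 from the lowest among the 223 miRNAs above that mean. Its log2 fold change was the lowest of the 6 members above it, at -1.20 ± 0.23. By TMM the value was -0.98 and by the reference scaling -0.30 ± 0.23. miR-351-5p, the member with the miR-125 seed, measured 324, 288, 304 and 232 CPM in sham and 215, 163, 152 and 135 CPM in TAC. Sham 4 and TAC 1 were the nearest libraries and still did not cross. Its log2 fold change was -0.79 ± 0.18 by library totals, -0.57 by TMM and 0.11 ± 0.18 by the reference scaling.

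miR-450a-5p, which comes from either of its hairpins, measured 327, 256, 239 and 190.0 CPM in sham and 115, 134, 133 and 107 CPM in TAC. Sham 1 was the highest of these libraries and the groups were separate. Its log2 fold change was -1.05 ± 0.18 by library totals, -0.83 by TMM and -0.15 ± 0.18 by the reference scaling, where it came to 0.11 without sham 1. miR-450b-5p measured 15.99, 34.1, 23.2 and 24.96 CPM in sham and 13.4, 9.10, 18.1 and 11.6 CPM in TAC. TAC 3 was higher than sham 1, so its groups overlapped, and its log2 fold changes were -0.91 ± 0.29 by library totals, -0.71 by TMM and -0.02 ± 0.29 by the reference scaling.

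The 4 remaining members had a mean of 66.8 counts or fewer, and their fold changes come from a fit without the count minimum. miR-542-3p measured 14.7, 13.7, 18.3 and 13.5 CPM in sham and 7.08, 5.90, 4.89 and 7.48 CPM in TAC. Its groups did not overlap, and its log2 fold change was -1.25 ± 0.27 by library totals, -1.03 by TMM and -0.35 ± 0.27 by the reference scaling. The other 3 overlapped between the groups. By library totals, TMM and the reference scaling their log2 fold changes were -0.70, -0.49 and 0.20 for miR-503-3p, -0.50, -0.30 and 0.39 for miR-351-3p, and -0.79, -0.58 and 0.11 for miR-542-5p, each with an SE of 0.29 or more. For the arms outside the member list the log2 fold changes were -0.29 ± 0.31 by library totals for miR-450b-3p and -0.38 ± 0.34 for miR-450a-1-3p, with 0.61 and 0.52 by the reference scaling.

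**Figure D3:**
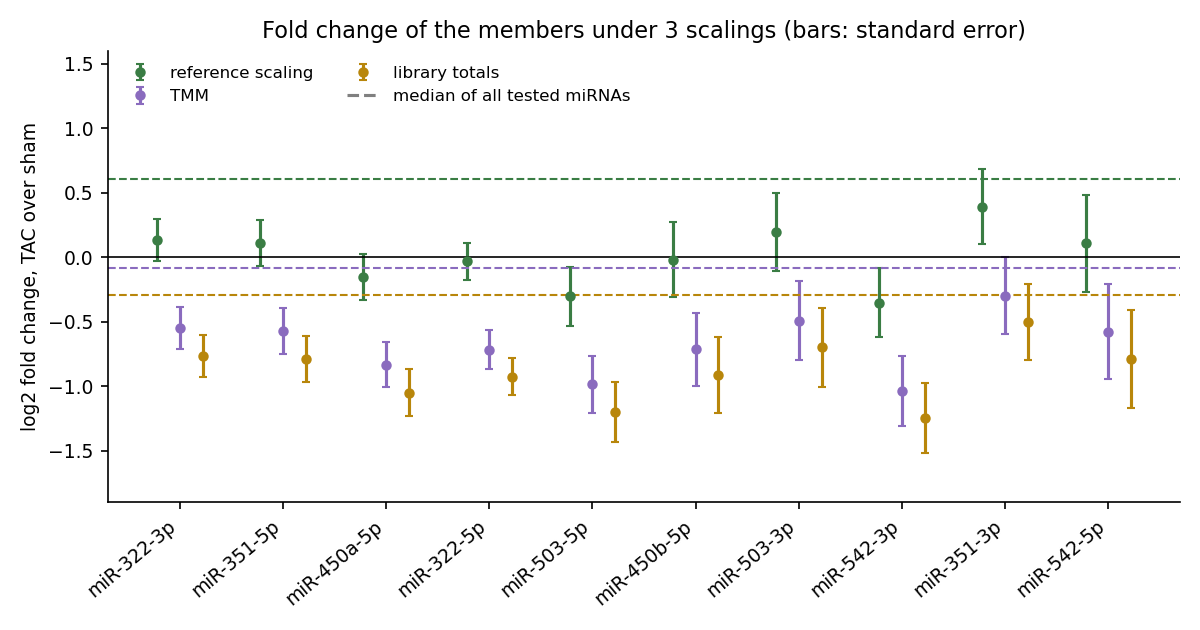
Log2 fold change of TAC over sham for each member by the reference scaling, TMM and library totals. Bars are 1 SE, derived from the fold change and F statistic of edgeR's quasi-likelihood test. Dashed lines mark the median of all tested miRNAs under each scaling. All 10 members lie below 0 by library totals and by TMM, while by the reference scaling they lie on both sides of 0, from -0.35 for miR-542-3p to 0.39 for miR-351-3p.

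A miRNA was called by edgeR's quasi-likelihood test when its Benjamini-Hochberg adjusted p was below 0.05 and its groups differed more than 1.7-fold. The 223 miRNAs that averaged more than 100 counts were tested. Of the members, 6 were among them and 4 were not. miR-503-5p and miR-450b-5p passed this minimum only through their sham libraries and averaged less than 100 counts in TAC. miR-503-5p had 104 to 201 counts in sham and 79 to 103 in TAC, and miR-450b-5p 74 to 184 and 71 to 115. Calls, ranks and medians that include them carry this selection. With the reference scaling none of the 6 was called higher or lower, where the background was 36.8% called higher and 0.897% called lower. DESeq2 called none of the 6 with that scaling, where it called 80 of the 223 miRNAs higher and 2 lower. With its own size factors it called 2 of the 6 lower, where it called 5 of the 223 higher and 9 lower. By library totals 4 of the 6 were called lower (miR-322-5p, miR-503-5p, miR-351-5p and miR-450a-5p) and none higher, where 10.3% were called lower and 0.448% higher. By TMM 2 of the 6 were called lower (miR-503-5p and miR-450a-5p), where 4.48% were called lower and 1.35% higher. Because the members were selected with this contrast in view, nothing is read from these counts beyond the values. Without overlap between groups by library totals, TAC was below sham for 5 of these 6 members, where this held for 27.4% of the tested miRNAs, and for 6 of all 10, where it held for 19.6% of the miRNAs with a mean above 10 counts. By the reference scaling the groups overlapped for all 10 members, where among the same miRNAs TAC lay above sham without overlap for 39.9% and below it for 0.244%. The median log2 fold change of the 6 members was -0.02 by the reference scaling, beside 0.61 for all tested miRNAs, -0.71 by TMM, beside -0.08, and -0.92 by library totals, beside -0.29.

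**Figure D4:**
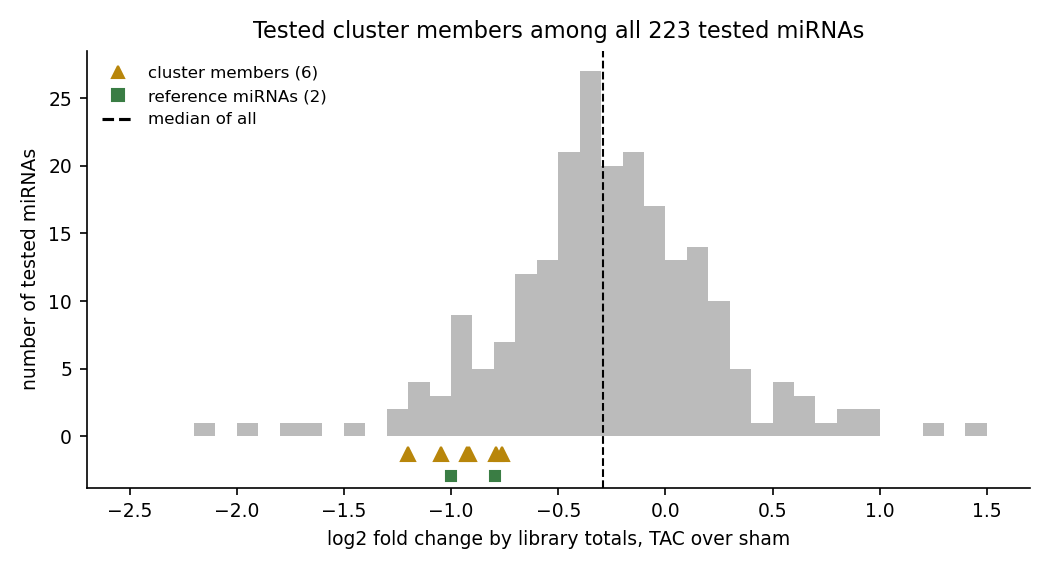
Histogram of the log2 fold change of TAC over sham by library totals (x axis) over the 223 tested miRNAs (y axis, number of miRNAs), with the 6 tested cluster members, the pair of reference miRNAs and the median of all marked. The members lie between -1.20 and -0.76, left of the median of -0.29.

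Among miRNAs with the same seed, miR-322-5p and miR-351-5p held a small share that was lower in TAC, given here as a description like the other group differences. Of all counts with the seed of miR-322-5p, miR-322-5p itself held 3.36%, 4.18%, 4.01% and 4.22% in sham 1 to 4, against 2.71%, 3.01%, 2.53% and 2.23% in TAC 1 to 4. The means were 3.94% ± 0.398 and 2.62% ± 0.325 (SD, n = 4 each), and the groups did not overlap. This share is a ratio within each library, so the scaling leaves it as it is. Most of the counts with this seed came from miR-16-5p, at 1838 ± 187 CPM in sham and 1543 ± 75.1 CPM in TAC by library totals. The 5 seed-mates had log2 fold changes between -0.75 for miR-497a-5p and -0.25 for miR-16-5p by library totals and between 0.15 and 0.65 by the reference scaling, and none lay below miR-322-5p. With miR-503-5p added through bases 2 to 7, the members held 5.12% in sham and 3.29% in TAC.

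The miR-125 seed showed a like picture at a lower share. miR-351-5p held 0.540% ± 0.0719 of the counts with its seed in sham and 0.319% ± 0.0791 in TAC, without overlap. Its seed-mates were far more abundant, miR-125a-5p at 13538 ± 2147 CPM and miR-125b-5p at 39374 ± 2136 CPM in sham by library totals. miR-125a-5p had a log2 fold change of -0.49 ± 0.15 by library totals and 0.40 by the reference scaling. For miR-125b-5p these values were 0.12 ± 0.088 and 1.02. miR-542-5p, whose one seed-mate was scarce, held 88.3% ± 7.19 of the counts with its seed in sham and 70.6% ± 15.3 in TAC, and the groups overlapped.

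**Figure D5:**
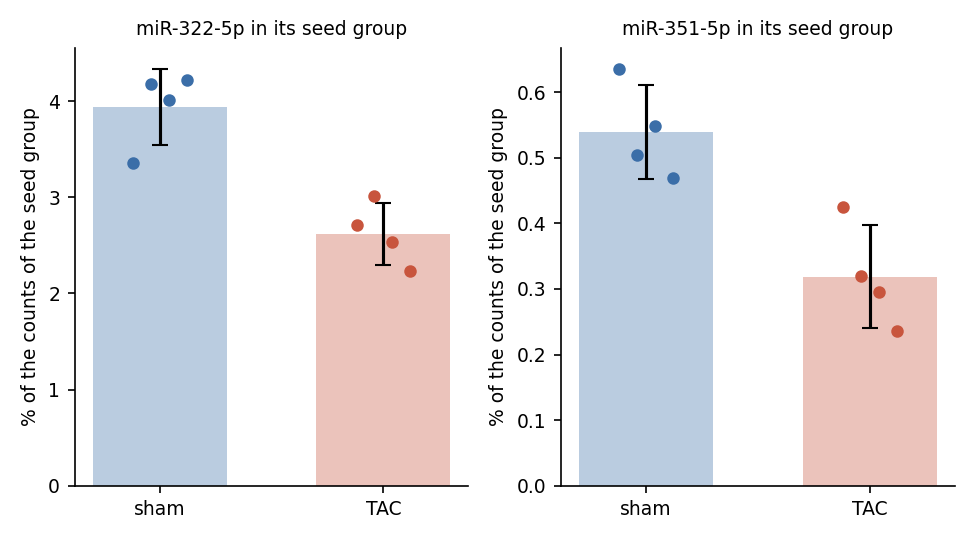
Percent of all counts with the seed of miR-322-5p that miR-322-5p itself held, and the same for miR-351-5p, in each sham and TAC library (points) with group means (bars). Every TAC point lies below every sham point in both panels, from 3.36% to 4.22% against 2.23% to 3.01% for miR-322-5p.

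The miRNAs outside the cluster that tracked it most closely over the libraries were found by the root mean square difference between their log2(CPM + 1), centred on the mean, and the average of the 6 tested members. The nearest was miR-101a-3p at 0.0792, where the median of the 217 others tested was 0.453. It was followed by miR-126a-5p at 0.130, miR-497a-5p, which has the seed of miR-322-5p, at 0.147, miR-139-5p at 0.165 and miR-181c-5p at 0.182. These values describe 8 libraries in 2 groups and include the difference between groups by library totals, which was -0.89 for miR-101a-3p and -1.02 for miR-126a-5p on the log2 scale. Among the 10 miRNAs nearest to each of the 6 tested members, 1 to 3 of the 5 other members were found. A member was the nearest of all to miR-503-5p, namely miR-322-5p at 0.215, and for the others the nearest miRNA lay outside the cluster. With each group centred on its own mean, a choice made after seeing the data, miR-101a-3p was still the nearest to the members' average, at 0.0786, and the next 4 were replaced by miR-32-5p, miR-484, miR-143-5p and miR-125b-1-3p. In that centring miR-322-3p had 1 other member among its 10 nearest and the other 5 tested members had none.

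Markers of other cell types were counted in these isolated cardiomyocytes. The summed levels of their 4 lists (endothelial, erythroid, leukocyte, fibroblast and smooth muscle) were on average lower in TAC by library totals. On that scale the median log2 fold change of all tested miRNAs was itself -0.29. The cardiomyocyte list (miR-1a-3p, miR-133a-3p, miR-208a-3p, miR-208b-3p and miR-499-5p) summed to between 160712 and 198133 CPM in sham and between 194455 and 245941 CPM in TAC, with all 5 of its miRNAs present. The endothelial list, miR-126a-3p and miR-126a-5p, summed to between 49248 and 72051 CPM in sham and between 29274 and 34557 CPM in TAC, so the groups did not overlap, as for the cluster. Its log2 ratio of TAC over sham was -0.87 by library totals, beside -0.85 for the summed cluster. miR-126a-3p is also one of the pair that sets the reference scaling, and it spread from 25759 to 50698 CPM among the sham libraries. The part of endothelial RNA in the values of the cluster was not tested. The leukocyte list of 5 ranged from 1305 to 2455 CPM in sham and from 1051 to 1448 CPM in TAC, the erythroid list of 3 from 418 to 1503 and from 43.8 to 550.0, and the fibroblast and smooth muscle list of 7 from 44144 to 52122 and from 39109 to 46123. The log2 ratios of TAC over sham by library totals were -0.65 for the leukocyte, -1.54 for the erythroid and -0.15 for the fibroblast and smooth muscle list, and 0.32 for the cardiomyocyte list. The groups overlapped in these 4 lists, no miRNA of any list was at 0 in all libraries, and their part in the result was not tested either. The tested miRNAs of the endothelial, erythroid, leukocyte, fibroblast and smooth muscle, and cardiomyocyte lists had median log2 fold changes that depended on the scaling. In that order they were -0.91, -1.52, -0.76, -0.29 and 0.03 by library totals. By the reference scaling they were -0.01, -0.62, 0.13, 0.60 and 0.93, beside 0.61 for all tested miRNAs.

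Other miRNA loci of the X chromosome are given for comparison, without a test. Of 40 mature miRNAs listed from such loci, 24 were counted and 11 were tested. Their median log2 fold change was 0.48 by the reference scaling and -0.42 by library totals, beside 0.61 and -0.29 for all tested miRNAs and -0.02 and -0.92 for the 6 tested members. With the reference scaling 4 of the 11 were called higher and none lower, where 36.8% of all tested miRNAs were called higher. By library totals 2 of the 11 were called lower, where the background was 10.3%, and by TMM 1, where it was 4.48%.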

How the data were processed

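Small RNA libraries of isolated cardiomyocytes from 4 sham and 4 TAC mice were compared, with groups taken from the labels. The authors deposited whole-number read counts per mature miRNA, without normalization. The submitters' notes name the mm10 build and StringTie 1.3.1 without a role, and the miRNA aligner and its handling of reads that match several miRNAs are not given in the sources used here.

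From the counts, edgeR 4.0.16 in R 4.3.3 (estimateDisp, glmQLFit and glmQLFTest) was fitted over miRNAs averaging more than 100 counts, with the scalings described above. The biological coefficient of variation was 0.255. Each SE of a log2 fold change was its absolute value divided by the square root of the test's F statistic. The fit was tested on simulated data. In these, as many miRNAs were raised as lowered and the reference pair was left unchanged, so they cannot decide between the scalings. Alternatives were DESeq2 1.42.0, other scalings, filters and pseudocounts, a replicate block and leaving out each library. The pseudocount was 0.5 counts for arm ratios and 1 CPM for levels. P-values of the fits between groups measure the spread between hearts within groups. They take the scaling factors as known, so the spread of the reference pair between hearts is in neither these p-values nor the SEs. The sign-flip tests take the 8 libraries of both groups together. At its smallest value a sign-flip p reflects only that all libraries agree in sign.

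The members, the marker and X-chromosome lists and the tests were chosen with earlier results of these data known. Named miRNAs were the members, the other arms of their hairpins, their seed-mates, both reference miRNAs and the 5 miRNAs nearest in pattern. Centring of patterns within groups was added after seeing the data. Sequences were matched by name in the RefSeq table, for 593 of 697 miRNAs, and hairpin coordinates were read from the GRCm38 annotation. The other values were computed in Python 3.11.15 (scipy 1.17.1, numpy 2.4.6, pandas 2.3.3) and plotted with matplotlib 3.10.9.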

Additional observations from a re-analysis of the deposited data

Results flagged for a closer look

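miR-542-5p in the library of TAC mouse 3 stood apart from the other TAC libraries, at 6.15 CPM (39 counts) against 2.77 to 3.33 CPM. Its gap to the nearest TAC library was 0.833 of the group's whole range, just above the 95% critical value of Dixon's ratio for 4 samples. Among 30 groups examined in this way, chance marks about 1 in 20. The same library was the one in which miR-542-5p was counted more than miR-542-3p.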

How the results depend on the processing

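The direction of the members rested on the scaling. Log2 ratios of the summed cluster were 0.04 by the reference scaling, -0.85 by library totals, -0.64 by TMM and -0.60 by DESeq2 size factors, and leaving out each library gave -0.05 to 0.19 by the reference scaling and -0.93 to -0.78 by library totals. The number of members called lower was 0 by the reference scaling, 4 by library totals, 2 by TMM, 2 by DESeq2 size factors in edgeR and 2 by DESeq2 with its own size factors. When each library was left out, library totals called 3 to 5 members lower, where 16 to 26 of all tested miRNAs were called lower. The members called by library totals and by TMM include miR-503-5p, which passed the count minimum only through sham. Over all tested miRNAs, 82 were called higher and 2 lower by the reference scaling. The corresponding counts were 1 and 23 by library totals, 3 and 10 by TMM, 4 and 7 by DESeq2 size factors in edgeR, and 5 and 9 by DESeq2 with its own factors. Without the count minimum 127 were called higher and without a required fold 142, and with miR-19b-3p alone as reference 1 was called lower. Leaving out each library gave 59 to 106 higher and 1 to 2 lower, with 1 lower without sham 1, sham 3, TAC 1, TAC 2 or TAC 4.

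The study's methods describe the mice as 4 sham and TAC pairs, but the labels tie no sham library to a TAC library. Same-numbered deviations from the group means correlated at 0.17, -0.37, 0.31 and -0.22. Only sham 3 correlated best with the TAC library of its own number. These few correlations cannot decide whether equal numbers mark pairs. With a replicate block TMM called 1 higher and 8 lower, of which 1 was a member, library totals called 1 higher and 19 lower, of which 4 were members, and the reference scaling called 76 higher and 3 lower, with no member.

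The step from miR-351-5p to miR-450a-5p ranged from 0.23 to 0.36 when each library was left out, with exact adjusted p-values of 0.0281 to 0.0562. With the seed taken as bases 2 to 7 the members held 5.12% (sham) and 3.29% (TAC) of the miR-322-5p seed group. The arm ratios of all 4 hairpins kept their direction and passed when each library was left out. With 1 reference factor per library 73 miRNAs were called higher and 2 lower, and no member was called.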
